A study of Mus musculus with 20 samples.

Results

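Hyaluronan is a long, unbranched sugar polymer of the extracellular matrix, and 9 genes that make it, cut it or bind it were followed here: the synthase genes Has1, Has2 and Has3, the genes of the degrading proteins Hyal1, Hyal2 and Cemip, and the genes of the binding proteins Cd44, Tnfaip6 and Vcan. They were taken by name from the 47729 genes listed in each count table, and all 9 were found in all 20 tables. The series concerned inflammatory fibroblasts and therapy resistance in rectal cancer. Polyadenylated RNA was sequenced from colon fibroblasts of C57BL6/J mice, grown in 2D on tissue culture plates in Advanced DMEM F12 with 10% fetal bovine serum. There were 5 groups of 4 libraries. Wild-type fibroblasts were untreated, or fibroblasts were stimulated for 24 h with medium conditioned by organoids named APTK or APTKA. Both media were also used in an irradiated arm (5 fractions of 2 Gy). The labels do not expand the names of the organoids and do not say whether organoids or fibroblasts were irradiated. No group was irradiated without organoid medium, and none received organoid medium that had not been conditioned. A library is called by its group and its label's number, I to IV. The labels do not say whether the 4 libraries of a group are separate cultures or animals. The p-values therefore cover the spread among these libraries only, and that spread may be technical.

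Hyaluronan is made at the plasma membrane by the synthases, which join UDP-sugars and push the chain out of the cell, and in connective tissue fibroblasts are its main source. Long chains are cut outside the cell or at its surface, by the cell surface protein HYAL2 and by CEMIP, and the pieces are broken down in lysosomes by HYAL1 and exoglycosidases. CD44 is the main cell surface receptor of hyaluronan, TSG-6 (the product of Tnfaip6) moves protein heavy chains onto it, and versican (the product of Vcan) is a large proteoglycan that binds it in the matrix.

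The libraries held 17.3 to 31.6 M counts. Levels are CPM (counts scaled to a common library size), with totals adjusted by the TMM method, and a gene is called changed where its adjusted p is below 0.05 over 14820 genes tested. All 8 fibroblast markers (among them Col1a1, Pdgfra and Dcn) were detected in every group, and the defining markers Epcam, Ptprc and Cdh5 reached at most 0.105, 0.195 and 0.0400 CPM in any library. Over all libraries of the 5 groups, the other lists summed to 0.908 to 1.76 CPM (8 epithelial markers), 4.58 to 10.0 CPM (6 leukocyte and macrophage markers, Lyz2 at most 6.91 and Cd68 at most 3.35), 0.883 to 3.40 CPM (5 endothelial markers), 0.526 to 1.65 CPM (4 mesothelial markers) and 0.684 to 2.96 CPM (3 enteric glia markers). The 6 pericyte and smooth muscle markers were higher, mostly through Myh11 (195 to 383 CPM) and Notch3 (59.7 to 109.9 CPM). Their sum was 413 to 477 CPM in untreated libraries, 421 to 514 with APTK medium, 297 to 324 with APTKA medium, 399 to 490 with irradiated APTK and 312 to 340 with irradiated APTKA medium. The summed level of the 8 fibroblast markers was 55103 to 62073 CPM in untreated libraries, 47384 to 52882 with APTK medium, 28307 to 32384 with APTKA medium, 41209 to 50472 with irradiated APTK medium and 29345 to 38348 with irradiated APTKA medium. Both sums were lower with APTKA medium, and their part in the results was not tested. In such bulk libraries, fewer cells of a type and less RNA per cell cannot be told apart. Calls between irradiated and plain APTK medium depended most on library IV of the irradiated APTK group. Without it, the number of genes called there went from 205 to 1270. Library IV was not set apart from all others of its group. By chi-square divided by its degrees of freedom, libraries I and IV were the closest pair of that group. A run without library IV is therefore not the removal of a lone outlier.

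With APTKA medium, 4 of the 6 genes that cut or bind hyaluronan rose against untreated fibroblasts: Cd44 2.51-fold, Tnfaip6 2.46-fold, Cemip 2.17-fold and Hyal2 1.57-fold. Has2, the synthase gene with nearly all synthase counts, rose 1.19-fold, and Hyal1 fell 1.31-fold. With APTK medium, Cemip fell 2.46-fold, Tnfaip6 2.43-fold and Vcan 1.60-fold. Has1 and Hyal1 were called higher, but not Has1 without APTK library II, nor Hyal1 without untreated library I, III or IV or any single APTK library. Of the 9 genes, 5 were called higher and 1 lower with APTKA medium against untreated cells, where 61.4% of all genes tested were called (31.5% higher, 29.9% lower). With APTK medium against untreated cells 2 were called higher and 3 lower, where 43.4% of all genes were called (20.9% higher, 22.5% lower). The number higher was 1 with RLE scaling, without the filter on low counts, with a filter of 5 CPM in 4 libraries, with the replicate block or without untreated library I, III or IV or APTK library I, III or IV, and 0 without APTK library II. Between APTKA and APTK medium 6 were higher and 2 lower, against 62.9% of all genes called (31.1% higher, 31.8% lower). The share of the 9 genes called was 6 of 9, 5 of 9 and 8 of 9 in these comparisons, set against those backgrounds. The median log2 fold change of the 9 genes was 0.41 with APTKA medium, -0.075 with APTK medium and 0.68 between the media, where the medians over all genes were 0.0031, 0.0029 and -0.026. The comparisons of each medium with untreated cells share their control libraries.

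**Figure D1:**
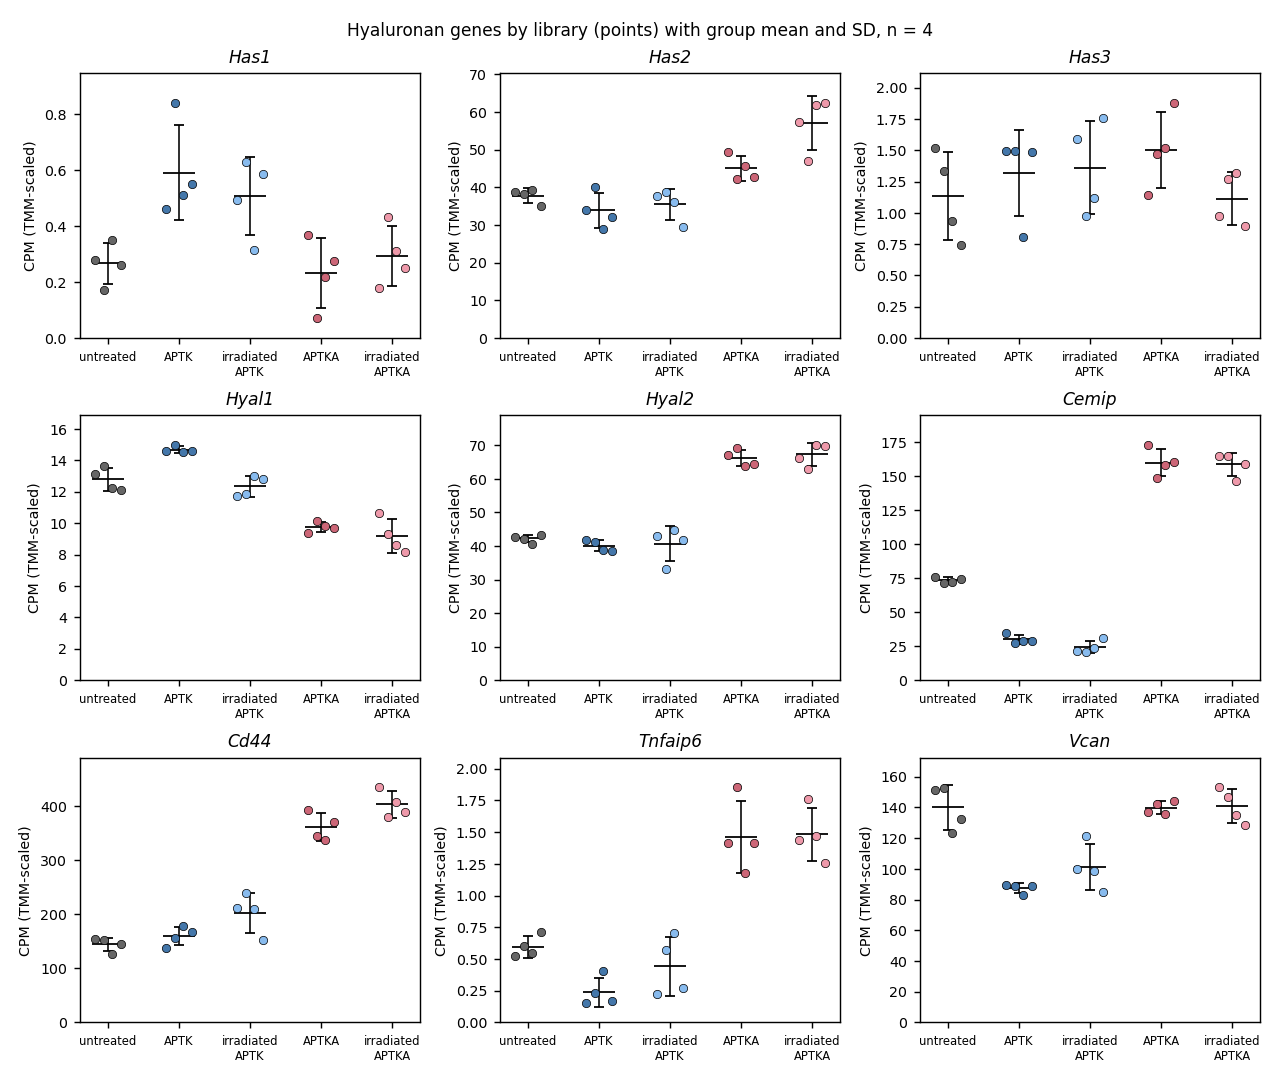
Level of each of the 9 genes (vertical axis, CPM with TMM-scaled totals, starting at 0) in the 5 groups (horizontal axis). Each point is 1 library, the bar is the group mean and the whiskers are the SD over 4 libraries. Cemip, Cd44, Hyal2 and Tnfaip6 lie higher in the APTKA and irradiated APTKA libraries than in all others, with Cemip between 146 and 173 CPM there and at most 75.8 CPM elsewhere.

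Sequence before the start is shown for 3 of the 4 genes that cut or bind hyaluronan and rose together with APTKA medium. With APTK medium these 3 differed, with Cemip and Tnfaip6 called lower and Cd44 not called. RefSeq promoter windows (mouse build GRCm38.p6, the assembly also called mm10) were at hand for 7 of the 9 genes, all but Has2 and Has3. The Hyal2 window is not shown, since its RefSeq start lies inside the gene as annotated by GENCODE and 180 of its 250 bases are exon. The Tnfaip6 start also lies inside its gene, with 104 exon bases in the window. Of the 250 bases before each RefSeq start, the longest stretch outside annotated exons is printed, 5′ to 3′ on the gene's strand. Capitals mark matches to NF-kB, AP-1 (TGANTCA), CRE (TGACGTCA), STAT (TTCNNNGAA) or TATAAA, each searched on both strands. The Cemip stretch is chr7:84086506-84086755 on the minus strand, Cd44 is chr2:102901666-102901915 on the minus strand and Tnfaip6 is chr2:52037863-52038008 on the plus strand.
Cemip: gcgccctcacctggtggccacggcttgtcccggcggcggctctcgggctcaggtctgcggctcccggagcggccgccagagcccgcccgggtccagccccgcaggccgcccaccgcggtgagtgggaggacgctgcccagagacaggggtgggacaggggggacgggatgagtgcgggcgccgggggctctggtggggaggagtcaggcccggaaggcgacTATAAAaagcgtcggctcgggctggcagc
Cd44: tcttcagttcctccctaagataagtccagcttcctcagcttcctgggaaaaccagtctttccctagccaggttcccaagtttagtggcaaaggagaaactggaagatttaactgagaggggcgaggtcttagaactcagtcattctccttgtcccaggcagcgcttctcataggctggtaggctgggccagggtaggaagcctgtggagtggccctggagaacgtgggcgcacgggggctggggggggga
Tnfaip6: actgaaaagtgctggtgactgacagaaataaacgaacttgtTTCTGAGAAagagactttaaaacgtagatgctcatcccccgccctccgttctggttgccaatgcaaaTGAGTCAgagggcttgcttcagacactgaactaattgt

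The Cemip window has TATAAA 29 bases before the start, a sequence that 12.4% of the 32851 windows of this length hold. The GC box GGGCGG (32.7% of windows, not capitalised) is on the opposite strand at 2 places in the Cemip window and at 1 place in the Tnfaip6 window. The Tnfaip6 window has an AP-1 match 142 bases before the start (6.75% of windows) and a STAT match at 209 bases (7.02%). These distances are from the RefSeq start, and 104 bases of the Tnfaip6 window before it are exon in GENCODE and were left out above. The Cd44 stretch has no capitals, and holds the short sequence ACGTG at 29 bases (16.6% of windows). No motif searched was found in all 3 windows, and none of these 3 holds an NF-kB or CRE match. The window of Hyal2, which also rose with APTKA medium and is not printed, does hold an NF-kB match. It lies 238 bases before the RefSeq start, outside annotated exons (7.25% of windows). These matches are descriptions of the letters and not evidence of a bound factor.

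Has2 (ENSMUSG00000022367, chr15:56665627-56694539, minus strand) encodes the synthase most used by fibroblasts in culture. It measured 38.8, 38.1, 39.3 and 35.1 CPM in untreated libraries I to IV. With APTK medium Has2 was at 34.0, 40.2, 28.9 and 32.2 CPM. With APTKA medium Has2 was at 49.4, 42.3, 45.7 and 42.8 CPM and all 4 of these libraries lay above all untreated and APTK libraries. Has2 in irradiated APTK medium was at 37.6, 38.6, 36.0 and 29.6 CPM. Has2 in irradiated APTKA medium was at 57.3, 47.0, 61.7 and 62.5 CPM, where library II lay within the range of plain APTKA medium and the other 3 lay above it. The log2 fold change of Has2 with APTKA medium against untreated cells was 0.25 ± 0.096 (SE, adjusted p = 0.0259). This call was lost without untreated library IV (0.22, adjusted p = 0.0789), APTKA library I (0.21, adjusted p = 0.0898) or APTKA library III (0.25, adjusted p = 0.0504). With APTK medium Has2 differed from untreated cells by -0.16 ± 0.097 (SE, adjusted p = 0.194), a difference that was called only without APTK library II (-0.25, adjusted p = 0.0370). Between APTKA and APTK medium Has2 was higher by 0.41 ± 0.097 (SE, adjusted p = 6.63e-04). The annotated antisense gene Has2os shares 182 exon bases with Has2 on the opposite strand (4.30% of Has2 exon bases) and held 464 counts in all libraries against 21703 of Has2. Has2os fell with both media, with log2 fold changes of -1.21 (adjusted p = 2.48e-05) for APTKA and -0.69 (adjusted p = 0.00803) for APTK medium. The strand setting of the counting is not given in the sources used here.

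Has1 (ENSMUSG00000003665, chr17:17843323-17855205, minus strand) encodes a synthase that is usually the least active of the family, and it had only 2 to 22 counts in a library. In untreated libraries I to IV Has1 measured 0.280, 0.172, 0.351 and 0.261 CPM. With APTK medium Has1 was at 0.461, 0.841, 0.512 and 0.551 CPM, above all untreated libraries. With APTKA medium Has1 was at 0.370, 0.0700, 0.217 and 0.274 CPM, a range that held all untreated values. Has1 in irradiated APTK medium was at 0.494, 0.630, 0.315 and 0.585 CPM and in irradiated APTKA medium at 0.180, 0.433, 0.310 and 0.251 CPM, and these groups overlapped. It rose with APTK medium by 1.13 ± 0.36 (SE, adjusted p = 0.0130) on the log2 scale, a call that was lost without APTK library II (0.91, adjusted p = 0.0691). It was lower with APTKA than with APTK medium, at -1.32 ± 0.37 (SE, adjusted p = 0.00275). With APTKA medium against untreated cells the value was -0.19 ± 0.43 (SE, adjusted p = 0.718). Has1 passed the filter on low counts mainly through the APTK groups (4 plain and 3 irradiated libraries at or above the cutoff of 0.379 CPM, and 0 of 4 untreated ones), so a difference was built into its being tested. The Has1 window of RefSeq holds the CRE sequence 83 bases before the start, as do 1.55% of all windows.

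Has3 (ENSMUSG00000031910, chr8:106870242-106884566, plus strand) encodes the synthase known for shorter chains. It measured 1.52, 1.34, 0.937 and 0.746 CPM in untreated libraries I to IV. With APTK medium Has3 was at 1.497, 1.49, 0.804 and 1.48 CPM and with APTKA medium at 1.14, 1.47, 1.52 and 1.88 CPM. Has3 in irradiated APTK medium was at 1.59, 0.974, 1.12 and 1.76 CPM and in irradiated APTKA medium at 0.972, 1.27, 1.32 and 0.895 CPM. All 5 groups overlapped, and Has3 was called in none of the comparisons. Its log2 fold change was 0.41 ± 0.24 (SE, adjusted p = 0.149) with APTKA and 0.22 ± 0.25 (SE, adjusted p = 0.503) with APTK medium against untreated cells, with 17 to 48 counts in a library. Has3 shares 352 exon bases (5.52%) with Chtf8 on the opposite strand, a gene with 56452 counts against 657 of Has3, so part of the Has3 counts may belong to Chtf8. Chtf8 fell with APTK medium against untreated cells (-0.42 (adjusted p = 6.95e-07) on the log2 scale).

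Within each library, counts of the synthase genes per exon length were nearly all from Has2. Has2 held 96.8 to 97.9% of the summed synthase level per kb in untreated libraries, 95.5 to 96.6% with APTK medium and 96.6 to 97.8% with APTKA medium. Has1 held 0.413 to 0.818%, 1.22 to 1.88% and 0.152 to 0.687% in the same groups, so that its share in every APTK library lay above that in every library of the other 2.

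Cemip (ENSMUSG00000052353, chr7:83932857-84086502, minus strand) encodes a secreted or surface protein needed for the cutting of long hyaluronan by skin fibroblasts. It measured 75.8, 71.6, 72.4 and 74.5 CPM in untreated libraries I to IV. With APTK medium Cemip was at 34.5, 27.3, 29.1 and 28.9 CPM. With APTKA medium Cemip was at 173, 148, 158 and 160.0 CPM. The 3 groups were fully apart, with APTK below and APTKA above the untreated libraries. Cemip in irradiated APTK medium was at 21.8, 20.9, 23.9 and 30.9 CPM, where library IV lay within the range of plain APTK medium and the other 3 below it. In irradiated APTKA medium Cemip was at 165, 164, 146 and 159 CPM, overlapping plain APTKA medium. The log2 fold change of Cemip against untreated cells was 1.12 ± 0.083 (SE, adjusted p = 1.60e-11) with APTKA medium and -1.30 ± 0.087 (SE, adjusted p = 1.57e-11) with APTK medium. Between APTKA and APTK medium it was 2.42 ± 0.088 (SE, adjusted p = 2.85e-17), and between the irradiated media 2.69 ± 0.090 (SE, adjusted p = 6.92e-18). The directions of these 4 differences and their calls held in every alternative run.

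Hyal2 (ENSMUSG00000010047, chr9:107567945-107572779, plus strand) encodes a membrane-anchored hyaluronidase that cuts long chains into pieces. It measured 42.8, 42.2, 40.7 and 43.4 CPM in untreated libraries I to IV. With APTK medium Hyal2 was at 41.6, 41.2, 38.9 and 38.6 CPM and overlapped the untreated range. With APTKA medium Hyal2 was at 67.2, 69.2, 63.8 and 64.5 CPM, with every library above all untreated and APTK libraries. Hyal2 in irradiated APTK medium was at 42.8, 33.1, 44.8 and 41.9 CPM, where library II was the lowest of all 20. In irradiated APTKA medium Hyal2 was at 66.1, 62.9, 70.2 and 69.9 CPM, overlapping plain APTKA medium. Hyal2 rose with APTKA medium by 0.65 ± 0.066 (SE, adjusted p = 2.05e-09) on the log2 scale. With APTK medium its value was -0.075 ± 0.067 (SE, adjusted p = 0.387). Against APTK medium, Hyal2 was higher with APTKA medium by 0.72 ± 0.066 (SE, adjusted p = 2.77e-10).

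Hyal1 (ENSMUSG00000010051, chr9:107576927-107581710, plus strand) lies next to Hyal2 and encodes the lysosomal hyaluronidase. It measured 13.1, 13.7, 12.2 and 12.1 CPM in untreated libraries I to IV. With APTK medium Hyal1 was at 14.6, 14.98, 14.5 and 14.6 CPM, above all untreated libraries. With APTKA medium Hyal1 was at 9.38, 10.1, 9.83 and 9.68 CPM, below all untreated libraries. Hyal1 in irradiated APTK medium was at 11.7, 11.9, 12.97 and 12.8 CPM, below all plain APTK libraries. In irradiated APTKA medium Hyal1 was at 10.6, 9.28, 8.61 and 8.16 CPM, a range that held all plain APTKA values. Hyal1 fell with APTKA medium (-0.39 ± 0.081 (SE, adjusted p = 1.37e-04)) and was lower with APTKA than with APTK medium (-0.59 ± 0.080 (SE, adjusted p = 3.16e-07)). The rise with APTK medium was small, at 0.20 ± 0.078 (SE, adjusted p = 0.0393), and its call was lost without untreated library I, III or IV or any of the 4 APTK libraries (log2 fold changes from 0.18 to 0.23 and adjusted p from 0.0281 to 0.103 over all libraries left out). It was also lost with RLE scaling (0.19, adjusted p = 0.0537) and without the filter on low counts (0.22, adjusted p = 0.1002). Hyal1 shares 1920 bases (50.8% of its exon bases) with Naa80 and 159 with Hyal3, all on the same strand, so its counts are uncertain. Naa80 was at 18.2 ± 1.19 CPM in untreated cells, 18.4 ± 1.45 with APTK and 19.5 ± 1.82 with APTKA medium, and was called in none of the 3 comparisons among these groups. With irradiated APTKA against irradiated APTK medium Naa80 was called higher (0.23, adjusted p = 0.0418), where Hyal1 was lower (-0.43).

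The hyaluronidase genes of the pair moved apart with APTKA medium. Per kb of exon, Hyal2 was 3.54 to 4.10 times the level of Hyal1 in untreated libraries, 3.03 to 3.27 times with APTK medium and 7.45 to 8.22 times with APTKA medium. The ratio was 3.20 to 4.20 with irradiated APTK and 7.14 to 9.83 with irradiated APTKA medium, so all 8 libraries of APTKA media lay above the other 12. Cemip set against Has2, per kb within a library, was 0.638 to 0.735 in untreated cells, 0.235 to 0.351 with APTK medium and 1.20 to 1.30 with APTKA medium. It was 0.188 to 0.362 with irradiated APTK and 0.821 to 1.21 with irradiated APTKA medium. These ratios combine values already tested and carry no test of their own. The size of the ratio of Hyal2 to Hyal1 is uncertain, since Hyal1 shares 50.8% of its exon bases with Naa80.

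Cd44 (ENSMUSG00000005087, chr2:102811141-102901665, minus strand) encodes the receptor through which cells bind and take up hyaluronan, and its 9 annotated transcripts were counted together. It measured 154, 152, 127 and 144 CPM in untreated libraries I to IV. With APTK medium Cd44 was at 138, 156, 178 and 167 CPM, overlapping the untreated range. With APTKA medium Cd44 was at 393, 344, 337 and 372 CPM, above every library without APTKA medium. Cd44 in irradiated APTK medium was at 211, 239.9, 210.1 and 152 CPM, where libraries I to III lay above all plain APTK libraries and library IV lay among them. In irradiated APTKA medium Cd44 was at 436, 380.2, 408 and 389.9 CPM, which overlapped plain APTKA medium. Cd44 rose with APTKA medium by 1.32 ± 0.11 (SE, adjusted p = 6.96e-10) and was higher than with APTK medium by 1.18 ± 0.11 (SE, adjusted p = 4.37e-09) on the log2 scale. With APTK medium against untreated cells the value was 0.15 ± 0.10 (SE, adjusted p = 0.268). With irradiated APTK medium Cd44 was higher than in untreated cells, at 0.49 ± 0.10 (SE, adjusted p = 6.95e-04). These groups overlapped, since irradiated APTK library IV lay within the untreated range, and this comparison was not rerun in the alternatives.

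Tnfaip6 (ENSMUSG00000053475, chr2:52038009-52056686, plus strand) encodes TSG-6, a secreted link protein induced by inflammatory signals, and had 4 to 57 counts in a library. It measured 0.519, 0.603, 0.546 and 0.709 CPM in untreated libraries I to IV. With APTK medium Tnfaip6 was at 0.154, 0.229, 0.402 and 0.170 CPM. With APTKA medium Tnfaip6 was at 1.41, 1.86, 1.17 and 1.41 CPM. Every APTK library lay below and every APTKA library above the untreated range. Tnfaip6 in irradiated APTK medium was at 0.220, 0.573, 0.701 and 0.273 CPM, with libraries II and III within the untreated range and I and IV below it. In irradiated APTKA medium Tnfaip6 was at 1.44, 1.76, 1.47 and 1.25 CPM, overlapping plain APTKA medium. The log2 fold change of Tnfaip6 against untreated cells was 1.30 ± 0.26 (SE, adjusted p = 7.93e-05) with APTKA and -1.28 ± 0.36 (SE, adjusted p = 0.00460) with APTK medium. Between APTKA and APTK medium it was 2.58 ± 0.30 (SE, adjusted p = 2.98e-08). All untreated, APTKA and irradiated APTKA libraries of Tnfaip6 reached the filter's cutoff of 0.379 CPM, against 1 of 4 with APTK medium. A difference from APTK medium was thus partly built into its being tested.

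Vcan (ENSMUSG00000021614, chr13:89655312-89742509, minus strand) encodes versican, which forms large aggregates with hyaluronan, and its 9 annotated transcripts were counted together. It measured 152, 153, 123 and 133 CPM in untreated libraries I to IV. With APTK medium Vcan was at 89.7, 88.6, 82.7 and 88.7 CPM, below all untreated libraries. With APTKA medium Vcan was at 137, 142, 136 and 144 CPM, within the untreated range. Vcan in irradiated APTK medium was at 100.1, 121, 98.9 and 85.1 CPM, with library IV within and the other 3 above the plain APTK range. Vcan in irradiated APTKA medium was at 153, 147, 135 and 129 CPM, overlapping the untreated and plain APTKA libraries. Vcan fell with APTK medium by 0.68 ± 0.081 (SE, adjusted p = 2.56e-07) on the log2 scale. With APTKA medium the value was -0.0023 ± 0.080 (SE, adjusted p = 0.983), with a sign that changed in some alternatives. Vcan was higher with APTKA than with APTK medium, at 0.68 ± 0.081 (SE, adjusted p = 8.41e-08). Per kb of exon, Cd44 was 2.12 to 2.32 times the level of Vcan in untreated libraries, 3.29 to 4.59 times with APTK medium and 5.16 to 6.13 times with APTKA medium.

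**Figure D2:**
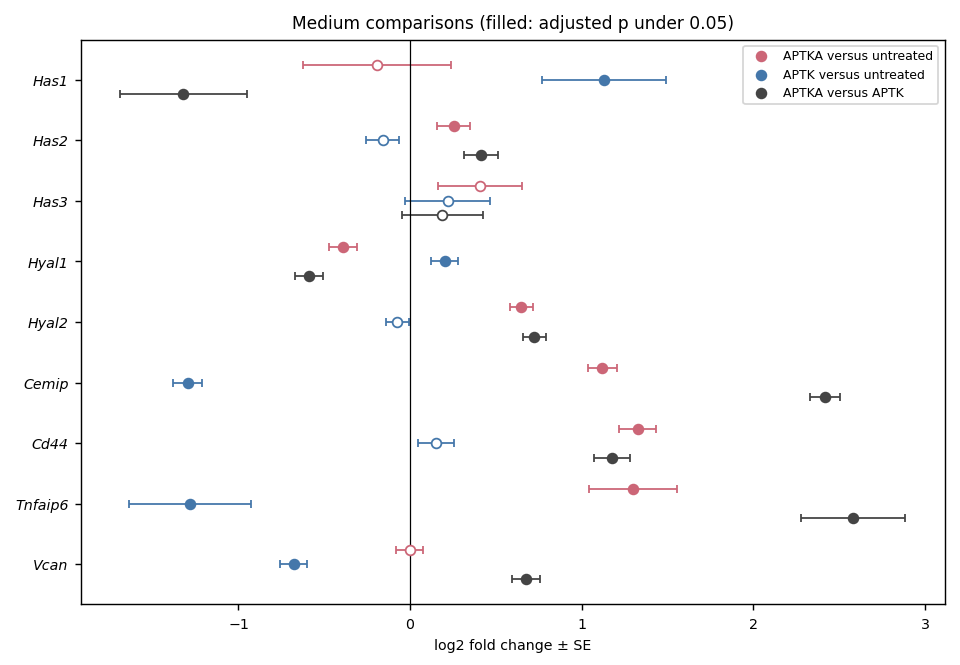
Log2 fold change (horizontal axis, with SE as whiskers) of the 9 genes (vertical axis) for APTKA against untreated, APTK against untreated and APTKA against APTK medium. Filled points have an adjusted p under 0.05 and open points do not. Cemip and Tnfaip6 lie right of 0 with APTKA medium (1.12 and 1.30) and left of 0 with APTK medium (-1.30 and -1.28).

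The difference between the media was also measured in the irradiated arm, with other libraries. Between irradiated APTKA and irradiated APTK medium, 6 of the 9 genes were called higher and 1 lower, where 61.3% of all genes were called (30.1% higher, 31.2% lower), and the median was 0.69 against -0.031 over all genes. Cemip was higher by 2.69 ± 0.090 (SE, adjusted p = 6.92e-18), Tnfaip6 by 1.70 ± 0.28 (SE, adjusted p = 5.57e-06) and Cd44 by 0.99 ± 0.10 (SE, adjusted p = 5.89e-08). Hyal2 was higher by 0.72 ± 0.066 (SE, adjusted p = 3.69e-10), Has2 by 0.69 ± 0.096 (SE, adjusted p = 1.22e-06) and Vcan by 0.48 ± 0.081 (SE, adjusted p = 1.52e-05). Hyal1 was lower, at -0.43 ± 0.081 (SE, adjusted p = 4.55e-05). Groups did not overlap for any of these 7 genes, but the share of all genes without overlap was not counted. Has1 had a value of -0.72 ± 0.37 (SE, adjusted p = 0.0919), which was called without irradiated APTKA library II (-0.99, adjusted p = 0.0421) or irradiated APTK library III (-0.93, adjusted p = 0.0411). Has3 differed by -0.29 ± 0.25 (SE, adjusted p = 0.311).

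Whether the irradiated arm differed from the plain arm was asked within each medium. Between irradiated and plain APTKA medium, edgeR called 0 of the 9 genes, where 0.729% of all genes were called (0.452% higher, 0.277% lower). At an unadjusted p under 0.05 there was 1, Has2, with the share of all genes at that threshold not counted. DESeq2 called 1, also Has2. The value of Has2 was 0.34 ± 0.094 (SE, adjusted p = 0.0987). It was called without irradiated APTKA library II (0.43, adjusted p = 0.0215) and without irradiated APTK library IV (0.34, adjusted p = 0.0448). Over all genes, those runs called 0.512% and 1.26%. A fit of only the groups compared (0.33, adjusted p = 0.0372) and DESeq2 (0.35, adjusted p = 0.0305) called Has2 too, where 3.67% and 2.07% of all genes were called. Has2 was also called without the filter on low counts (0.36, adjusted p = 3.30e-05), where 1.01% of 31290 genes were called. Values of the other genes lay between -0.42 (adjusted p = 0.495) for Has3 and 0.34 (adjusted p = 0.808) for Has1. Cemip, Tnfaip6, Vcan and Hyal2 had values of -0.012, 0.015, 0.012 and 0.023 on the log2 scale.

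Between irradiated and plain APTK medium, edgeR again called 0 of the 9 genes, where 1.38% of all genes were called (0.547% higher, 0.837% lower). At an unadjusted p under 0.05, Cd44, Tnfaip6 and Vcan were higher and Hyal1 and Cemip lower. The share of all genes at that unadjusted threshold was not counted. DESeq2 called 1 gene, Cd44 (0.34, adjusted p = 0.0348), where it called 2.96% of all genes. The edgeR values were 0.34 ± 0.10 (SE, adjusted p = 0.106) for Cd44, 0.21 ± 0.081 (SE, adjusted p = 0.201) for Vcan and 0.89 ± 0.38 (SE, adjusted p = 0.260) for Tnfaip6. Cemip had a value of -0.29 ± 0.091 (SE, adjusted p = 0.112) and Hyal1 of -0.25 ± 0.079 (SE, adjusted p = 0.115). Without irradiated APTK library IV, Cemip (-0.43, adjusted p = 5.18e-04), Cd44 (0.46, adjusted p = 4.22e-04) and Vcan (0.29, adjusted p = 0.0181) were called, where 8.45% of all genes were called. Without the filter on low counts, Cemip (-0.30, adjusted p = 0.00102) and Cd44 (0.33, adjusted p = 6.45e-04) were called, where 1.57% of 31290 genes were called. Whether the irradiation effect differed between media was tested by the difference of the effects. edgeR and DESeq2 both called 0 of the 9 genes, where edgeR called 0.182% of all genes (0.121% higher, 0.0607% lower) and DESeq2 0.769%. At an unadjusted p under 0.05 there was 1, Cemip, with the share of all genes at that threshold not counted. The difference for Cemip was 0.28 ± 0.12 (SE, adjusted p = 0.496). Without irradiated APTK library IV it was called (0.42, adjusted p = 0.0168), where 2.04% of all genes were called.

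**Figure D3:**
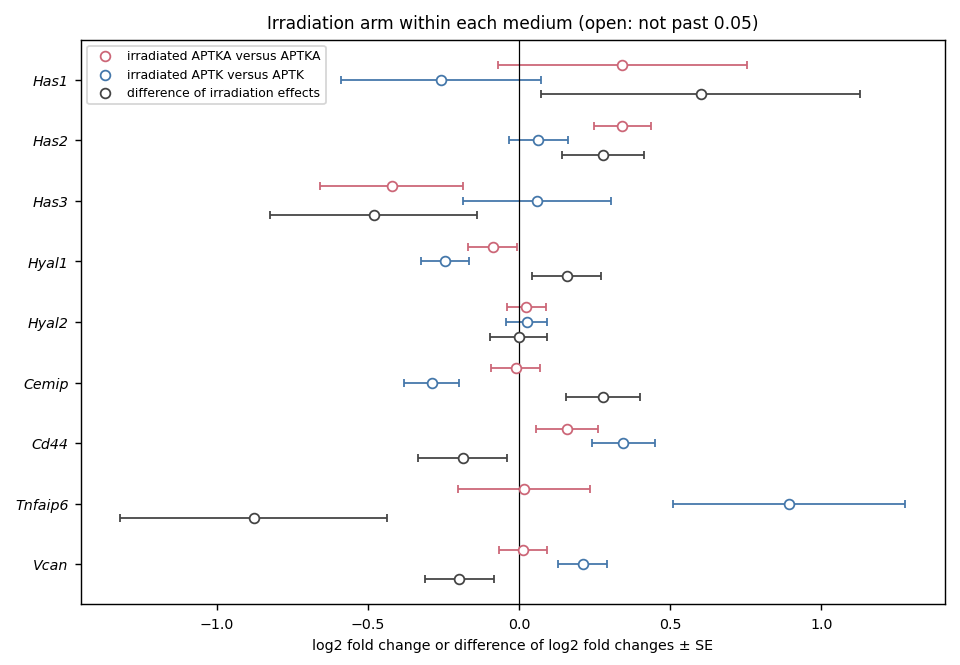
Log2 fold change of irradiated against plain APTKA medium and irradiated against plain APTK medium, and the difference of these effects (horizontal axis, with SE as whiskers), for the 9 genes (vertical axis). All points are open, since no adjusted p was under 0.05. Has2 lies at 0.34 in APTKA medium and 0.063 in APTK medium.

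The 5 groups were put in order of their mean level for each gene, and neighbours were told apart only where their contrast was called, so that groups further apart in the order can differ where no neighbours do. Over all genes, that call was made for 61.0% between irradiated APTKA medium and untreated cells, 43.6% between irradiated APTK medium and untreated cells, 61.5% between irradiated APTK and APTKA medium and 63.8% between irradiated APTKA and APTK medium. Cemip had 3 steps, with APTKA and irradiated APTKA medium above untreated cells, and these above APTK and irradiated APTK medium. Hyal1 had a step between APTK medium and untreated cells, which rests on the call that many alternatives lost, and a step between irradiated APTK medium and both APTKA media below it. Plain and irradiated APTK medium were not told apart for Hyal1 (adjusted p = 0.115). For Has2, Hyal2, Cd44 and Tnfaip6 both APTKA media came first and the only neighbours told apart were plain APTKA medium and the group just below it. Beyond neighbours, APTK medium was called lower than untreated cells for Tnfaip6, and irradiated APTK medium higher than untreated cells for Cd44. The Cd44 libraries of irradiated APTK medium and untreated cells overlapped. Vcan had its step between irradiated APTKA, untreated and APTKA above and both APTK media below. For Has1 and Has3 no neighbours were told apart. The highest group mean was 6.56 times the lowest for Cemip, 6.21 times for Tnfaip6, 2.80 times for Cd44 and 2.54 times for Has1. It was 1.69 times for Has2, 1.68 for Hyal2, 1.61 for Vcan, 1.60 for Hyal1 and 1.35 for Has3.

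Levels of different genes can be compared only per exon length. In untreated cells Cd44 was at 21.3 ± 1.76 CPM per kb of exon (SD, n = 4), Hyal2 at 12.8 ± 0.350, Vcan at 9.68 ± 1.00, Has2 at 8.92 ± 0.445 and Cemip at 6.01 ± 0.155. Hyal1 was at 3.38 ± 0.195 CPM per kb, and Tnfaip6, Has3 and Has1 were lowest at 0.348 ± 0.0491, 0.178 ± 0.0556 and 0.0589 ± 0.0163. With APTKA medium Cd44 reached 53.3 ± 3.80 CPM per kb and Hyal2 20.1 ± 0.759. Cemip, which was below Has2 and Vcan in untreated cells, was at 13.1 ± 0.8288 CPM per kb with APTKA medium, above Has2 at 10.6 ± 0.768 and Vcan at 9.66 ± 0.295. With APTK medium Cemip was at 2.45 ± 0.258 CPM per kb, below Hyal1 at 3.89 ± 0.0546. Exon lengths are those of all annotated transcripts joined, and these levels assume that all of that length was transcribed. They also assume that reads from all of it were counted. This is uncertain for Hyal1, which shares 50.8% of its exon bases with Naa80.

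**Figure D4:**
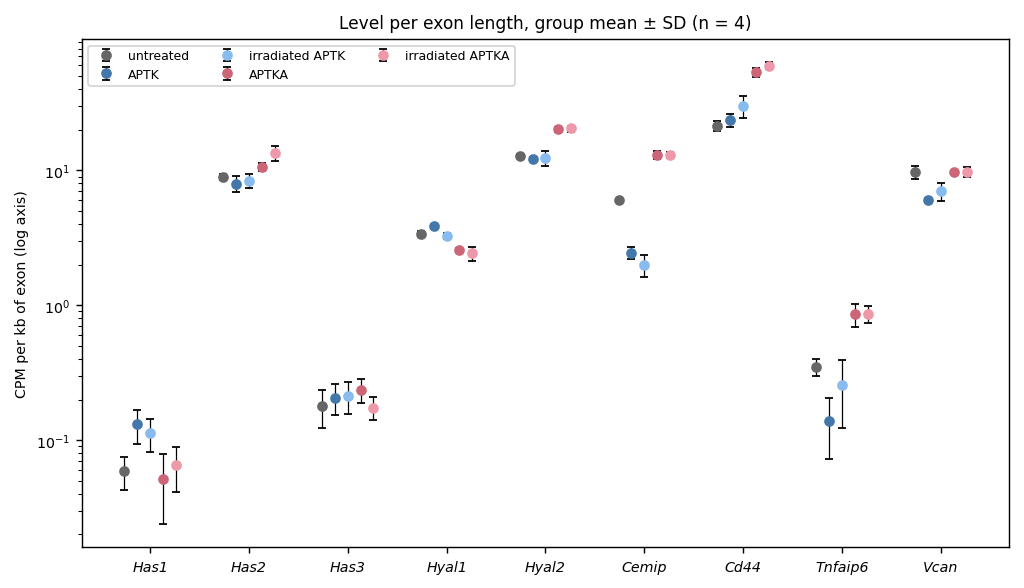
Mean level per exon length (vertical log axis, CPM per kb) of the 9 genes (horizontal axis) in the 5 groups, with the SD over 4 libraries as whiskers. Cd44 is highest in every group, from 21.3 to 59.5 CPM per kb, and Has1 is lowest in every group, from 0.0515 to 0.131 CPM per kb.

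The wider pathway was described by 47 further genes in 6 lists, of which 33 had enough counts to be tested. With APTKA medium against untreated cells 5 were called higher and 20 lower (61.4% of all genes called), with a median of -0.41. With APTK medium 6 were higher and 14 lower (43.4% of all genes), with a median of -0.14. Between the media 7 were higher and 15 lower (62.9% of all genes), with a median of -0.10. In the irradiated arm 7 genes were higher and 15 lower with APTKA than with APTK medium (61.3% of all genes called).

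Enzymes that supply UDP-sugars to the synthases were all tested (7 of 7). With APTKA medium 1 was called higher and 3 lower, and with APTK medium 2 higher and 1 lower, against untreated cells (61.4% and 43.4% of all genes called). Ugp2, which makes UDP-glucose, was at 236 ± 8.75 CPM in untreated cells, 171 ± 11.8 with APTKA and 165 ± 13.1 with APTK medium (SD, n = 4), and fell with both (-0.46 (adjusted p = 2.73e-06) and -0.52 (adjusted p = 1.29e-06) on the log2 scale). It was higher with irradiated than with plain APTKA medium, at 221 CPM (0.36 (adjusted p = 0.00926)). Ugdh, which turns UDP-glucose into UDP-glucuronic acid, rose with APTK medium from 47.0 ± 2.64 to 59.2 ± 0.827 CPM (0.34 (adjusted p = 7.40e-05)) and was lower with APTKA than with APTK medium (-0.44 (adjusted p = 5.76e-07)). Gfpt1, an enzyme that starts the hexosamine pathway, fell with APTKA medium (-0.32 (adjusted p = 2.67e-05)), while Gfpt2, of the same family, rose with APTKA (0.39 (adjusted p = 0.00248)) and APTK medium (0.32 (adjusted p = 0.0159)). The second call for Gfpt2 was lost without untreated library III (0.28, adjusted p = 0.0585) or APTK library IV (0.26, adjusted p = 0.0679). Between APTKA and APTK medium, where 62.9% of all genes were called, 1 gene was called higher and 3 lower, among them Gfpt1 (-0.30 (adjusted p = 4.82e-05)) and Uap1, which makes UDP-N-acetylglucosamine (-0.30 (adjusted p = 2.61e-05)).

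Of 9 other hyaluronidases and exoglycosidases 5 were tested, and against untreated cells 1 was higher and 4 were lower with either medium (61.4% of all genes called with APTKA and 43.4% with APTK medium). Hexa, which encodes a subunit of a lysosomal enzyme that trims hyaluronan pieces, was at 355 ± 13.1 CPM in untreated cells, 253 ± 6.44 with APTK medium (-0.49 (adjusted p = 4.95e-09)) and 218 ± 7.42 with APTKA medium (-0.70 (adjusted p = 9.63e-13)), and so fell with both. It was also lower with APTKA than with APTK medium (-0.21 (adjusted p = 3.99e-04)). Hyal3 was the gene that rose, by 0.91 (adjusted p = 0.0264) with APTKA and 0.93 (adjusted p = 0.0328) with APTK medium, at 29 to 58 counts per group. The first call was lost without untreated library II or IV or APTKA library II or IV (lowest value 0.72, adjusted p up to 0.111), and the second without untreated library II, III or IV or APTK library II or IV (lowest value 0.77, adjusted p up to 0.101). The second was also lost by DESeq2 (0.93, adjusted p = 0.0584) and without the filter on low counts (0.95, adjusted p = 0.0603). Untreated libraries of Hyal3 lay at 0.172 to 0.400 CPM, around the filter's cutoff of 0.379 CPM, and overlapped the APTKA libraries (0.235 to 0.745 CPM). All APTK libraries lay above that cutoff (0.439 to 0.688 CPM), so a difference was partly built into Hyal3 being tested.

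Among 5 other receptors 4 were tested, with 1 higher and 2 lower with APTKA medium and 1 higher with APTK medium (61.4% and 43.4% of all genes called). Stab1, a scavenger receptor, was at 0.331 ± 0.113 CPM in untreated cells and 1.70 ± 0.205 with APTKA medium (2.36 (adjusted p = 5.45e-09)), and was also higher than with APTK medium (1.67 (adjusted p = 4.02e-07)). Untreated libraries of Stab1 lay at 0.200 to 0.474 CPM, around the filter's cutoff of 0.379 CPM, and APTKA libraries above it at 1.51 to 1.98 CPM. A difference was thus partly built into Stab1 being tested. Layn, which encodes the receptor layilin, went from 32.5 ± 0.403 CPM to 43.2 ± 2.22 with APTK medium (0.41 (adjusted p = 6.77e-05)) and to 21.8 ± 1.11 with APTKA medium (-0.57 (adjusted p = 3.91e-07)), with -0.99 (adjusted p = 1.51e-11) between the media. Lyve1, a receptor of lymphatic endothelium and some macrophages, fell with APTKA medium (-1.17 (adjusted p = 0.00399)) at 20 to 43 counts per group, and was lower than with APTK medium (-0.99 (adjusted p = 0.0153), but -1.01, adjusted p = 0.0545 by DESeq2 and -0.99, adjusted p = 0.0952 without the filter on low counts). All APTKA and irradiated APTKA libraries of Lyve1 (at most 0.274 and 0.271 CPM) lay below the filter's cutoff of 0.379 CPM. Lyve1 passed the filter through the other groups, so a difference was built into its being tested. The endothelial marker list was at 2.16 to 3.40 CPM summed in untreated and 1.78 to 2.35 CPM with APTKA medium, and the leukocyte list at 8.92 to 9.40 and 4.58 to 5.58 CPM. Their part in the Lyve1 and Stab1 values was not tested.

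Of 10 other proteoglycans, link proteins and binding proteins (among the last Habp4 and C1qbp) 5 were tested. With APTKA medium 1 was called higher and 2 lower, and with APTK medium 2 higher and 2 lower (61.4% and 43.4% of all genes called). Between APTKA and APTK medium 1 was higher and 2 were lower (62.9% of all genes called). Bcan, the brevican gene, rose with APTK medium from 1.13 ± 0.557 to 2.29 ± 0.134 CPM (1.01 (adjusted p = 0.00170)) and fell with APTKA medium to 0.596 ± 0.151 CPM (-0.92 (adjusted p = 0.0112)). The fall was not called without untreated library IV (-0.53, adjusted p = 0.135), and Bcan differed between the media by -1.93 (adjusted p = 8.23e-07). Hapln4, a link protein gene, rose with APTK (1.34 (adjusted p = 2.08e-05)) and APTKA medium (0.67 (adjusted p = 0.0163)), the latter not without APTKA library III (0.54, adjusted p = 0.0680), and was lower with APTKA than with APTK medium (-0.66 (adjusted p = 0.00646)). Habp4 fell with APTKA medium (-0.41 (adjusted p = 2.04e-06)). C1qbp fell with APTK medium (-0.37 (adjusted p = 3.16e-06)) and was higher with APTKA than with APTK medium (0.29 (adjusted p = 3.08e-05)).

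Of 7 genes for heavy chain transfer and matrix partners 3 were tested. Ptx3, which encodes a pentraxin that crosslinks hyaluronan together with TSG-6, fell with both media, from 66.5 ± 3.23 CPM to 10.2 ± 0.961 with APTKA (-2.71 (adjusted p = 9.30e-10)) and 10.3 ± 1.12 with APTK medium (-2.69 (adjusted p = 4.25e-09)). The heavy chain genes Itih2 (-1.24 (adjusted p = 1.47e-08)) and Itih5 (-1.69 (adjusted p = 1.11e-04)) fell with APTKA medium. They were also lower than with APTK medium (-1.20 (adjusted p = 2.64e-08) and -1.76 (adjusted p = 5.85e-05)). Itih5 lay at 0.202 to 0.420 CPM with APTKA and 0.107 to 0.324 CPM with irradiated APTKA medium, around or below the filter's cutoff of 0.379 CPM. Itih5 passed the filter through the other groups, so a difference was partly built into its being tested. The 3 tested genes were thus all called lower with APTKA medium, as were 29.9% of all genes, and the other 4 listed genes had too few counts to be tested.

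All 9 proteases that cut versican or shed CD44 were tested, with 1 higher and 6 lower with APTKA medium, 6 lower with APTK medium (where all 9 values were below 0), and 4 higher and 4 lower between APTKA and APTK medium (61.4%, 43.4% and 62.9% of all genes called). Adamts9 was at 5.74 ± 0.406 CPM in untreated cells, 3.81 ± 0.397 with APTK medium (-0.59 (adjusted p = 7.21e-04)) and 1.16 ± 0.201 with APTKA medium (-2.31 (adjusted p = 6.93e-13)), and differed between the media by -1.72 (adjusted p = 6.04e-10). Adam10, a protease that sheds CD44, fell with APTKA medium from 93.9 ± 5.70 to 54.5 ± 3.28 CPM (-0.78 (adjusted p = 5.48e-12)). Adamts1 (-0.93 (adjusted p = 7.07e-06)) and Adamts20 (-1.66 (adjusted p = 9.95e-05)), which can cut versican, fell with APTK medium. Adamts20 lay at 0.153 to 0.382 CPM with APTK medium, around the filter's cutoff of 0.379 CPM, and at 0.585 to 0.999 CPM in untreated cells. A difference was thus partly built into Adamts20 being tested. Adamts5, which also cuts versican, was higher with APTKA than with APTK medium, at 259 ± 19.4 against 133 ± 9.64 CPM (0.96 (adjusted p = 0.00533)). Adamts15 had 36 counts over the 4 untreated, 35 over the APTK and 3 over the APTKA libraries. The ratio of untreated to APTKA medium was 12.7 (exact 95% interval 4.02 to 64.6, counting error only), and that of APTK to APTKA medium 12.1 (3.81 to 61.4). All APTKA and irradiated APTKA libraries of Adamts15 (at most 0.0870 and 0.144 CPM) lay below the filter's cutoff of 0.379 CPM. Adamts15 passed through the other groups, so a difference was built into its being tested. In the irradiated arm Mmp14, a membrane protease that also cuts CD44, was higher with irradiated than with plain APTKA medium (0.33 (adjusted p = 0.00825)), and Adamts1 was lower with irradiated than with plain APTK medium (-0.53 (adjusted p = 0.0445)). These and Ugp2 were the only genes of the 33 called between the arms, 2 in APTKA medium (0.729% of all genes called) and 1 in APTK medium (1.38%).

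**Figure D5:**
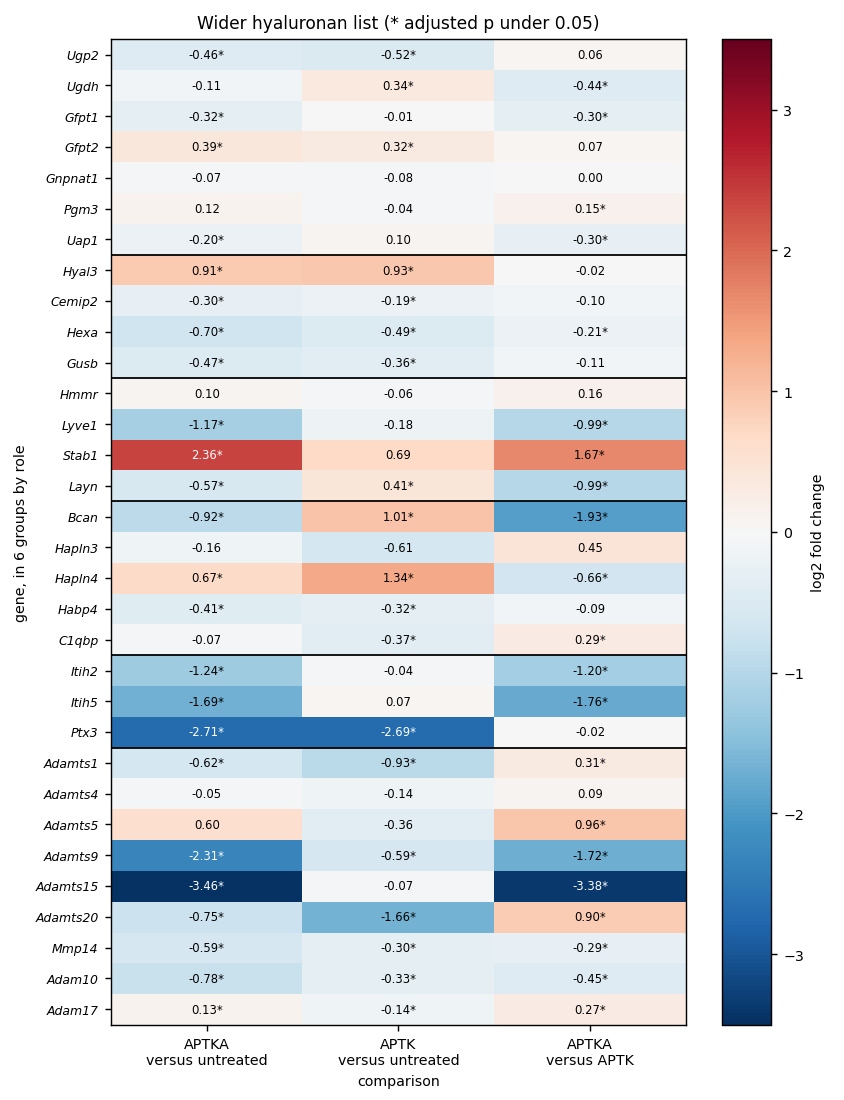
Log2 fold changes of 32 of the 33 tested genes of the wider pathway (vertical axis, lines divide the 6 lists) in 3 comparisons (horizontal axis), with an asterisk where the adjusted p was under 0.05. Red is higher and blue lower, and the column of APTKA against untreated cells is mostly blue, with 20 of the 33 genes called lower and 5 higher. The values for Adamts15 rest on 3 counts in the APTKA group.

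Genes whose levels followed those of the members most closely over the 20 libraries were found by Pearson correlation of log2 CPM (prior count 2) among 10109 genes. The points share the 5 groups, so r mainly reflects group means and is given as a description. This was done for the members whose group means differed at least 2-fold. For Cemip the nearest were Plcxd2 (r = 0.990), Ptprk (0.989) and Gadd45b (0.988). Gadd45b was at 63.6 CPM in untreated cells, 32.7 with APTK and 155 with APTKA medium, the same order as Cemip. For Cd44 they were Tox4 (0.982), Arih1 (0.980) and Akirin1 (0.977), for Tnfaip6 Nr1d2 (0.957), Nup153 (0.953) and Dpy19l1 (0.948), and for Has1 Irgm1 (0.818), Ifi211 (0.799) and Tmem45a (0.798). Within groups, after the group means were taken away, r for these pairs was lower, from 0.442 (Cemip with Gadd45b) to 0.777 (Cemip with Ptprk).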

How the data were processed

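The authors deposited whole-number read counts per gene for each of the 20 libraries, not normalised. Per the submitters' processing notes, the genome build was mm10 and the tools were featureCounts 1.5.0-p1, STAR 2.5.2a and bcl2fastq 2.20.0.422. Not given in the sources used here are the annotation release, the strand setting and how multiply matching reads were counted. Of 47729 gene identifiers 47224 were matched to a symbol. Counts were tested with edgeR 4.0.16 under R 4.3.3, by quasi-likelihood (TMM scaling, robust dispersions, the default expression filter by group, 5 group means, 15 residual degrees of freedom). Adjusted p follows Benjamini and Hochberg over 14820 genes, at 5%. SE was taken as the size of the log2 fold change divided by the root of its F statistic. Totals were 17.3 to 31.6 M counts. Intervals cover counting error alone, because counts were summed over the 4 libraries of a group and the spread among libraries does not enter. The sources name no molecular tags. The test was checked on simulated data. Gene models are GENCODE M21 (GRCm38), and coordinates count from 1. Alternatives were DESeq2 1.42.0, RLE and upper quartile scaling, no filter, a filter of 5 CPM in 4 libraries, only the groups compared, a replicate block and leaving out each library. Libraries of a group differed by more than counting noise in all pairs (chi-square divided by its degrees of freedom 4.77 to 87.6). Libraries with the same number did not deviate together (correlations from -0.108 to 0.0959 over 40 pairs), so the numbers were not used to pair them. From each list of the wider pathway, up to 3 genes with the largest called change in each of 3 medium comparisons were named, and 1 gene that this rule names is counted with its list but not reported here. The members, lists and rules were chosen with earlier results of these data known.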

Additional observations from a re-analysis of the deposited data

Results flagged for a closer look

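Among the 45 sets of 4 libraries screened (9 genes in 5 groups), 3 had a library set apart from the others by more than Dixon's 95% critical value for the gap relative to the range, where chance gives about 1 in 20. Has3 was at 0.804 CPM in APTK library III, against 1.484 to 1.497 in the other 3. Hyal1 was at 14.98 CPM in APTK library II, against 14.5 to 14.6 in the others, a narrow range. Vcan was at 82.7 CPM in APTK library III, against 88.6 to 89.7 in the others.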

How the results depend on the processing

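Of 723 values recomputed under the other tools, scalings, filters and fits, 700 kept their direction and their side of the threshold, and of 2220 with a library left out 2158 did. The number of the 9 genes called higher with APTK medium against untreated cells went from 2 to 1 with RLE scaling, without a filter, with the filter of 5 CPM and with the replicate block, and ranged from 0 to 2 with a library left out. Between APTKA and APTK medium, 1 in place of 2 was lower with the filter of 5 CPM, which leaves out Has1, Has3 and Tnfaip6. For irradiated against plain APTKA medium, 1 in place of 0 was higher without a filter, with only the groups compared and with DESeq2, and 0 to 1 with a library left out. For irradiated against plain APTK medium, 1 was higher without a filter and with DESeq2 (0 to 2 with a library left out), and 1 lower without a filter (0 to 1). Between the irradiated media 1 to 2 were lower and for the difference of irradiation effects 0 to 1 higher with a library left out.

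Signs changed only for small values that were not called. Vcan with APTKA medium against untreated cells was at 0.0193 without a filter, 0.00516 with only the groups compared and 0.00318 with the replicate block, and from -0.059 to 0.041 with a library left out. For irradiated against plain APTKA medium, Cemip was at 0.00514 without a filter (-0.046 to 0.029 with a library left out), Tnfaip6 at -0.00373 (-0.084 to 0.15) and Vcan at -0.00766 with upper quartile scaling and -0.000382 with the filter of 5 CPM (-0.030 to 0.055). The difference of irradiation effects for Hyal2 was 0.00229 with RLE scaling, 0.0266 without a filter and 0.00131 with DESeq2 (-0.075 to 0.049 with a library left out). With a library left out, Has1 with APTKA medium ranged from -0.54 to 0.13, and for irradiated against plain APTK medium Has2 from -0.0046 to 0.16, Has3 from -0.12 to 0.16 and Hyal2 from -0.026 to 0.10. The causes were not tested.

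Over all genes, calls for irradiated against plain APTKA medium went from 108 to 316 without a filter, 512 with only the groups compared and 307 with DESeq2, and from 34 to 294 with a library left out. Their split was 67 higher and 41 lower, and 47 and 47 with upper quartile scaling. For irradiated against plain APTK medium the 205 calls became 492, 10 and 439, and from 32 to 1270 with a library left out. The 27 calls for the difference of irradiation effects became 209 without a filter and 114 with DESeq2, and from 4 to 307 with a library left out.

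In a fit with the replicate number as a block, the rise of Hyal1 with APTK medium was 0.20 (adjusted p = 0.0506) and so not called, and no other call among the 9 genes and the named genes changed. Same-numbered libraries correlated best with each other in 10 of 40 pairs. With upper quartile scaling the order of the group means changed for Tnfaip6 and Vcan among groups not told apart, and with RLE scaling for no gene. Depth limits Has1, Has3 and Tnfaip6 most, with 2 to 57 counts in a library.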
